A study of Rattus norvegicus with 4 samples.

Results

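A set of 9 genes that encode transcription factors of β-cell identity and maturity were followed in rat INS-1 832/13 β-cells after silencing of Tbk1. The members were chosen by name, with earlier results of these data known. They are Mafa, Mnx1, Pdx1, Nkx6-1, Nkx2-2, Neurod1, Pax6, Isl1 and Foxa2, and all 9 were found among the 15172 genes of the deposited table. INS-1 832/13 is an insulin-secreting line derived from a rat insulinoma, so the measurements are of a dividing tumor line and not of islet β-cells. The control group, siScramble, had received a negative control siRNA without a target, and the siTbk1 group a SMARTpool, which is a mixture of siRNAs against Tbk1. Both groups were transfected with DharmaFECT reagent for 36 h and received no other treatment named in the labels. RNA sequencing was available for 2 samples per group, numbered 2 and 3 in each. The labels do not say that the samples came from separate cultures, so p-values measure the spread between these samples, which may be technical.

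These factors bind DNA at the insulin gene and at other β-cell genes, and many of them bind each other's promoters and enhancers, so that they form a network. Pdx1, Nkx6-1, Nkx2-2, Mnx1, Isl1 and Pax6 carry a homeodomain, Neurod1 is a basic helix-loop-helix factor, Foxa2 is a forkhead factor that opens chromatin, and Mafa is a basic leucine zipper factor of the large Maf family. Pdx1 and Foxa2 act early in the pancreas, whereas Mafa is switched on late and is known as a marker of mature, glucose-responsive β-cells.

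Silencing of Tbk1 left the 9 mRNAs with unequal changes. Mafa and Mnx1 fell, to 30.5% and 51.2% of the control level. The other 7 mRNAs differed between groups by less than 1.5-fold, with Pdx1 and Nkx2-2 below the control level and Nkx6-1, Pax6, Foxa2, Isl1 and Neurod1 above it. Calls required an adjusted p-value below 0.05 together with a change of 1.5-fold or more. In edgeR's quasi-likelihood test 2 of the 9 factors were called lower, against 6.18% of all 13953 tested genes. None of the factors was called higher, against 4.81%. The 2 called lower, Mafa and Mnx1, had already been reported as lower in these data by the study. The set was chosen with that known, so this count is no independent evidence about the set. At an unadjusted p-value under 0.05 in edgeR, 2 factors were higher, against 27.5% of all tested genes, and 4 were lower, against 27.9%. By the call rule, DESeq2, limma-voom and edgeR's likelihood ratio test also called 0 higher and 2 lower. Without the fold change limit, 3 factors were lower at an adjusted p-value under 0.05 in edgeR, against 24.8% of all tested genes, 2 were higher, against 24.4%, and 4 did not pass. The median log2 fold change of the 9 factors was 0.069, beside 0.0071 for all tested genes, and the median of its absolute value was 0.23, beside 0.25. In all 9 genes the samples of the groups did not overlap, which was also true of 76.6% of all tested genes. Both siTbk1 samples lay below both controls for 4 factors, against 37.9% of all tested genes, and above both controls for 5, against 38.7%.

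Total counts were between 38428926 and 47759013 per sample, and 3 counts, taken as the detection floor, corresponded to 0.0628 to 0.0781 CPM (the count a gene would have in a library of 1000000 counts). Tbk1 mRNA was at 53.7 and 52.5 CPM in the control samples and at 11.8 and 13.3 CPM in the siTbk1-treated samples, a log2 fold change of −2.08 (standard error 0.076, edgeR adjusted p = 3.74e-08), so both siTbk1 libraries match their labels. The 12 β-cell markers examined, Pdx1, Nkx6-1 and Mafa among them, were all listed, with Ins1 at 6130 to 11300 CPM. Marker levels in this paragraph are scaled by library size alone, without the TMM factors used for Tbk1 and for the levels below. Of 17 markers of other islet, pancreatic, stromal, endothelial and blood cells, 4 (Gcg, Hhex, Krt7 and Bhlha15) were listed and the rest were not analysed here. Their summed level was 1490 to 1550 CPM in control and 923 to 976 CPM in siTbk1-treated samples, nearly all of it Gcg, which encodes glucagon, and Hhex was near the detection floor, at 0.0781 to 0.232 CPM. The part of these markers in the results below was not tested. In bulk RNA, fewer cells that express a gene and less of its mRNA per cell cannot be told apart.

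**Figure D1:**
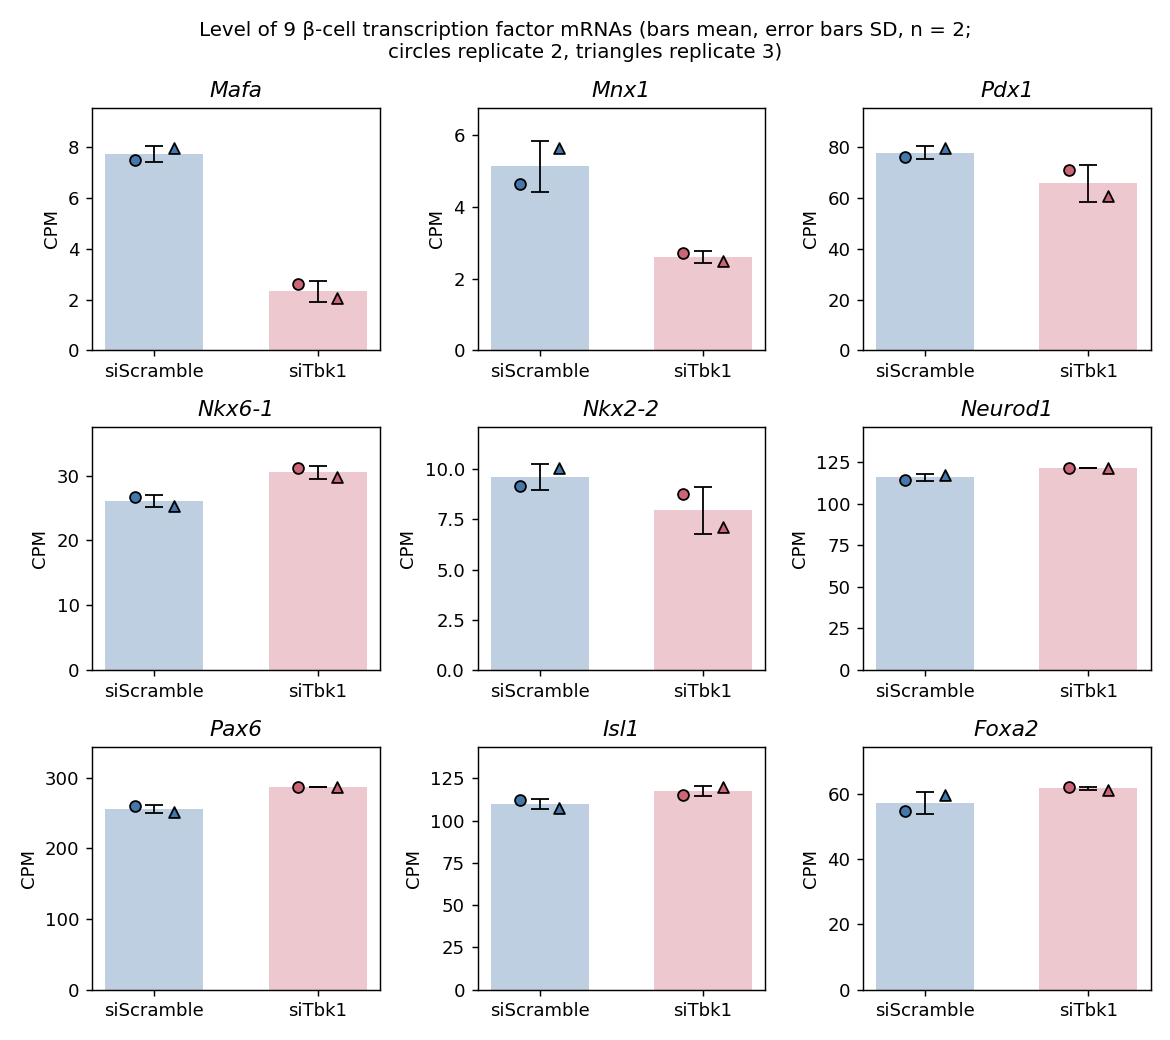
Level of each of the 9 factor mRNAs in CPM after TMM scaling, on axes that start at 0. Bars are group means, error bars are the SD of n = 2 samples, circles are replicate 2 and triangles replicate 3. Mafa and Mnx1 show the widest gap between groups for their height, while the siTbk1 points of the other 7 genes lie within 1.5-fold of the control mean.

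Mafa activates insulin transcription and marks mature β-cells. It is listed on chromosome 7 from 116780681 to 116781767 on the minus strand (rn6, the build named in the submitters' processing notes). Mafa had 360 and 315 counts in the siScramble samples and 123 and 77 counts in the siTbk1 samples of replicates 2 and 3. After TMM scaling these were 7.495 and 7.952 CPM in control and 2.62 and 2.04 CPM in siTbk1-treated cells. Both control samples were high and both siTbk1 samples were low, with a wide gap between the groups. The mean level fell from 7.72 ± 0.323 to 2.33 ± 0.406 CPM (SD, n = 2 each), which is −1.72 on the log2 scale (standard error 0.14, 95% confidence interval −2.03 to −1.40, edgeR adjusted p = 4.74e-06). The level left was 30.5% of control, with an interval of 24.5% to 37.9%. Only 0.165% of all tested genes had a lower log2 fold change. The exact 95% Poisson interval of the lowest sample, 60.8 to 96.2 counts, corresponds to 1.61 to 2.55 CPM and does not reach that of either control sample, 6.74 to 8.31 and 7.10 to 8.88 CPM. These intervals cover counting error only.

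Mnx1 encodes a homeodomain factor that is required in β-cells to keep them from taking on features of other islet cells. It is listed on chromosome 4 from 2376958 to 2381272 on the minus strand (rn6). Its counts were 222 and 223 in siScramble and 128 and 94 in siTbk1 samples, or 4.62 and 5.63 against 2.72 and 2.49 CPM. The siTbk1 samples lay close together and below both control samples, which differed more from each other. Mnx1 fell from 5.13 ± 0.712 to 2.61 ± 0.163 CPM (SD, n = 2 each), which is −0.97 on the log2 scale (standard error 0.15, 95% confidence interval −1.30 to −0.63, edgeR adjusted p = 0.00031). This left 51.2% of the control level, with an interval of 40.6% to 64.6%, and 1.54% of all tested genes had a lower log2 fold change. The interval of Mnx1 does not overlap that of Mafa or those of the other 7 factors. In a test for changes beyond 1.5-fold (glmTreat of edgeR), Mafa passed (adjusted p = 0.000222) and Mnx1 did not (adjusted p = 0.131).

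Pdx1 encodes the homeodomain factor that is needed to form the pancreas and that activates insulin in adult β-cells, and it is listed on chromosome 12 from 9496044 to 9501214 (rn6). It was measured at 76.1 and 79.7 CPM in siScramble and at 71.0 and 60.7 CPM in siTbk1 samples. Both siTbk1 samples were below both controls, and replicate 3 was well below replicate 2. The mean was 15.4% lower in siTbk1-treated cells (log2 fold change −0.24, standard error 0.073, 95% confidence interval −0.40 to −0.081, edgeR adjusted p = 0.0167), past the adjusted p-value but not the fold change limit. Without siTbk1 replicate 3 the log2 fold change of Pdx1 was −0.13 (edgeR adjusted p = 0.210), so its adjusted p-value rests on that sample.

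Nkx2-2 encodes a homeodomain factor that represses genes of other islet lineages, and it is listed on chromosome 3 from 141408798 to 141411171 (rn6). Its counts were 439 and 399 in siScramble and 413 and 268 in siTbk1 samples, or 9.14 and 10.1 against 8.78 and 7.10 CPM. One siTbk1 sample lay just under the lower control sample and the other further below. Nkx2-2 was not past the adjusted p-value (log2 fold change −0.27, standard error 0.12, 95% confidence interval −0.52 to −0.0063, edgeR adjusted p = 0.0836). Without siTbk1 replicate 2 its log2 fold change was −0.45 (edgeR adjusted p = 0.0096), without siScramble replicate 2 it was −0.34 (edgeR adjusted p = 0.037), and without siTbk1 replicate 3 it was −0.13 (edgeR adjusted p = 0.481).

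Nkx6-1 encodes a homeodomain repressor that keeps β-cells from switching to α-cell genes and supports insulin secretion, and it is listed on chromosome 14 from 9555264 to 9562190 (rn6). It was measured at 26.8 and 25.4 CPM in siScramble and at 31.2 and 29.8 CPM in siTbk1 samples. The siTbk1 samples were both above the controls and the spread within each group was small. The mean was 17.1% higher (log2 fold change 0.23, standard error 0.069, 95% confidence interval 0.076 to 0.38, edgeR adjusted p = 0.0167), within the fold change limit. Its adjusted p-value in edgeR was 0.0908 without siScramble replicate 3 and 0.133 without siTbk1 replicate 2.

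Pax6 encodes a paired domain and homeodomain factor needed for islet hormone expression, and it is listed on chromosome 3 from 95707386 to 95728625 (rn6). Its level was 259.9 and 252.0 CPM in siScramble and 286.7 and 286.6 CPM in siTbk1 samples. Pax6 was thus 12.0% higher in siTbk1-treated cells (log2 fold change 0.16, standard error 0.050, 95% confidence interval 0.054 to 0.27, edgeR adjusted p = 0.0173), with both siTbk1 samples above both controls. The edgeR adjusted p-value was 0.122 without siScramble replicate 3, 0.0866 without siTbk1 replicate 2 and 0.0716 without siTbk1 replicate 3. Pax6 and Neurod1 have fractional counts, as arise when a read is shared between similar sequences, and their counts are less certain.

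The remaining factors differed least. Neurod1, a factor that works with E proteins at the E-boxes of the insulin promoter, was at 114 and 118 CPM in siScramble and at 122 CPM in either siTbk1 sample (log2 fold change 0.069, 95% confidence interval −0.045 to 0.18, edgeR adjusted p = 0.300). Isl1, a LIM homeodomain factor of endocrine cells, was at 112 and 108 CPM in siScramble and at 116 and 120 CPM in siTbk1 samples (log2 fold change 0.098, 95% confidence interval −0.021 to 0.22, edgeR adjusted p = 0.159). Foxa2 was at 54.8 and 59.6 CPM in siScramble and at 62.0 and 61.2 CPM in siTbk1 samples (log2 fold change 0.11, 95% confidence interval −0.028 to 0.24, edgeR adjusted p = 0.172). In all 3 genes the siTbk1 samples were above the controls by a margin close to or under the spread within a group. None passed the adjusted p-value, and the upper bounds of their intervals lie well under the fold change limit, which is 0.585 on the log2 scale. CPM depends on transcript length, which was not used here, so the levels of different factors were not ranked against each other.

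**Figure D2:**
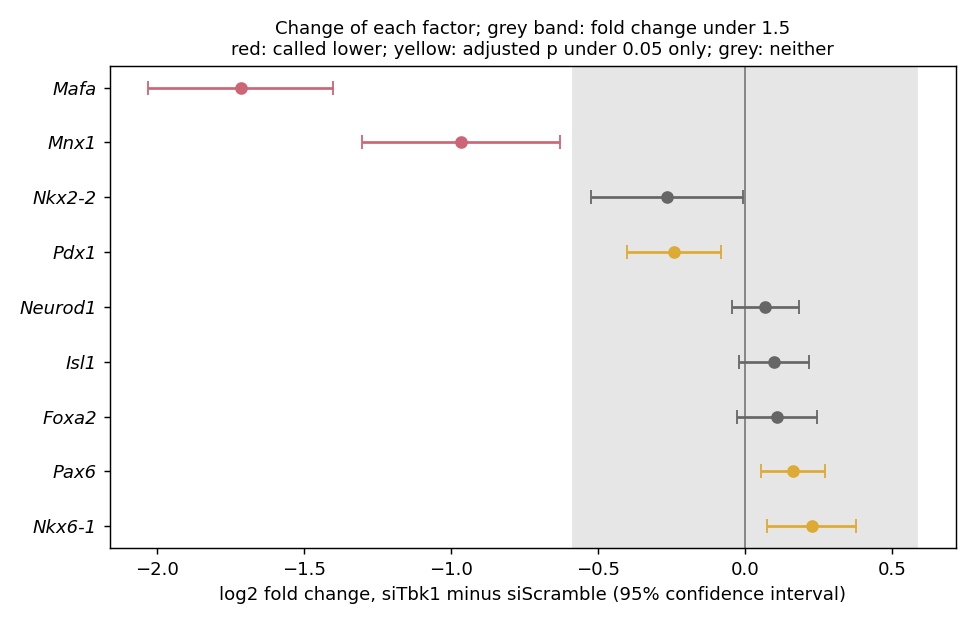
Log2 fold change of each factor (siTbk1 minus siScramble) with its 95% confidence interval from edgeR's quasi-likelihood fit, ordered from the lowest. The intervals of Mafa (−2.03 to −1.40) and Mnx1 (−1.30 to −0.63) lie outside the grey band of changes under 1.5-fold, and the other 7 lie inside it.

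Taken by replicate number, the 4 factors with a lower mean differed more between the samples numbered 3 than between those numbered 2. The log2 ratio of siTbk1 to siScramble was −1.52 in replicate 2 and −1.96 in replicate 3 for Mafa, and −0.76 and −1.18 for Mnx1. It was −0.10 and −0.39 for Pdx1, and −0.058 and −0.50 for Nkx2-2. The same was seen in 85.5% of the 862 genes called lower. It was also seen in 70.7% of the 6860 tested genes with a log2 fold change below 0, so it is not particular to these factors. For Nkx6-1 the ratios were 0.22 and 0.23, and the other 4 factors were above 0 in both pairs, at 0.040 to 0.19. Where the groups do not overlap, both ratios must have the same sign, so the shared signs add nothing.

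**Figure D3:**
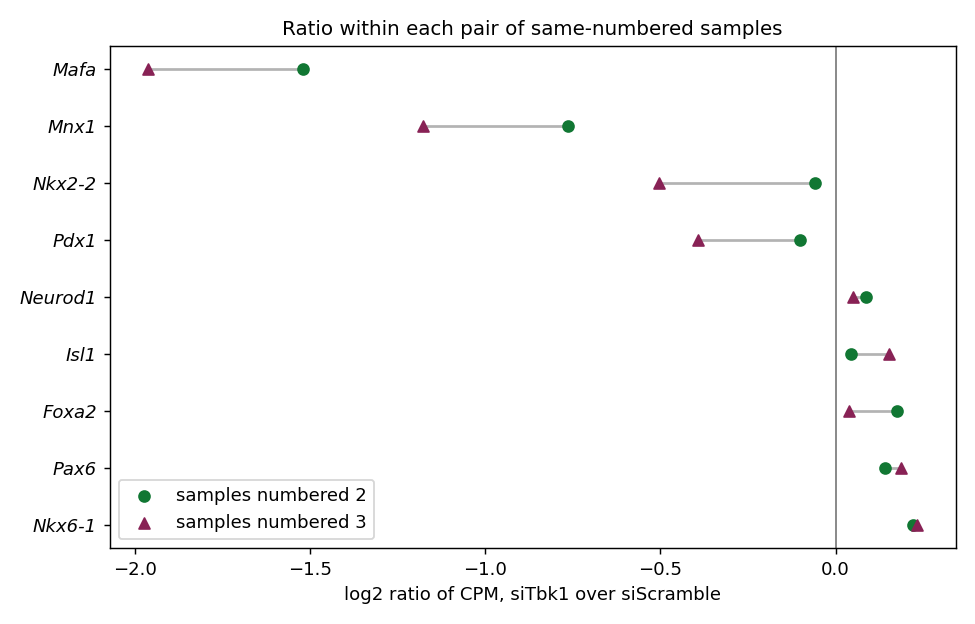
Log2 ratio of CPM, siTbk1 over siScramble, for the samples numbered 2 (circles) and the samples numbered 3 (triangles), by gene. For Mafa, Mnx1, Nkx2-2 and Pdx1 the triangle lies to the left of the circle. Every factor keeps its sign in both pairs, which follows from groups that do not overlap.

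The listed genomic span, which includes introns, was 1.09 kb for Mafa, 4.32 kb for Mnx1, 2.37 kb for Nkx2-2 and 5.17 kb for Pdx1. It was 3.44 kb for Neurod1, 4.20 kb for Foxa2, 6.93 kb for Nkx6-1, 13.7 kb for Isl1 and 21.2 kb for Pax6. Mafa is thus listed with the shortest span, and 8 of the 9 factors were shorter than the median of 20.1 kb over all tested genes. Since genes called lower had a shorter median span, at 10.6 kb, than genes called higher, at 36.0 kb, the fit was repeated after removing the trend along span from each library. The log2 fold change was then −1.61 for Mafa and −0.85 for Mnx1, both still called, and −0.13 for Pdx1 (edgeR adjusted p = 0.146). Nkx6-1 (0.33), Foxa2 (0.23), Neurod1 (0.18), Pax6 (0.18) and Isl1 (0.16) were then above 0 with an edgeR adjusted p-value of at most 0.0429, and none reached the fold change limit. With the replicate number as a block beside the span correction, Nkx6-1 (edgeR adjusted p = 0.0017) and Foxa2 (0.0211) stayed under 0.05, while Neurod1 (0.0529), Pax6 (0.0509) and Isl1 (0.108) did not.

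The 250 bases before the gene's start are shown for Mnx1, which was called lower, and for Pdx1 and Nkx6-1, which differed in opposite directions past the adjusted p-value. They are RefSeq sequences of build GRCr8, which differs from the build of the counts and lists Mnx1 and Foxa2 on the opposite strand. By symbol, 8 of the 9 factors, all but Mafa, were matched. Capitals mark the homeodomain core TAAT on either strand (ATTA when read from the opposite strand), the letters that several of these factors recognize.
Mnx1, chr4:6541395-6541644, plus strand: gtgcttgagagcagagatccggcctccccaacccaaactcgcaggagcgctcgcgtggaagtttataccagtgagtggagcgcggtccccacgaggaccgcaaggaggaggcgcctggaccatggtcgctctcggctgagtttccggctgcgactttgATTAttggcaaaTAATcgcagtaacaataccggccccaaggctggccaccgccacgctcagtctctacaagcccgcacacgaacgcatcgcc
Pdx1, chr12:12799157-12799406, minus strand: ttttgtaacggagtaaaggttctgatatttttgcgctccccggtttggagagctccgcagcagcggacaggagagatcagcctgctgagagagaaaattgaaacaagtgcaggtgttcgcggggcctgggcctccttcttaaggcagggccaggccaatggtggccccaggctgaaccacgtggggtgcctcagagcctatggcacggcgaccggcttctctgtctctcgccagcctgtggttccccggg
Nkx6-1, chr14:8273988-8274237, plus strand: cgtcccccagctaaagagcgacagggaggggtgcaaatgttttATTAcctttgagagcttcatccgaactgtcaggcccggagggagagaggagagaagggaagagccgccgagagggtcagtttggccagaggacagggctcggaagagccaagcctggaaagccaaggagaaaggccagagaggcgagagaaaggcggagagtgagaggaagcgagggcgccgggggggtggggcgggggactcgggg

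The core TAAT was found at 2 places before Mnx1, 1 place before Nkx6-1 and 0 places before Pdx1, and 5 of the 8 matched promoters held it, against 57.0% of all 33469 promoters of this length. The E-box CANNTG, which reads the same on both strands and is bound by Neurod1 with its partners, was found at 3 places before Pdx1, 1 place before Nkx6-1 and 0 before Mnx1, and in 4 of the 8, against 65.5% of all promoters. The letters TGACG, a short form of the cAMP response element, searched on both strands, was in 2 of the 8 (Nkx2-2 and Pax6), against 18.2% of all promoters. These matches describe the letters in the window and are not binding sites shown to be in use. G and C made up 60.8% of the bases before Mnx1, 59.6% before Pdx1 and 62.4% before Nkx6-1, beside a median of 51.2% over all promoters. The window of the Neurod1 promoter had the highest share of the 8, 69.2%, and that of Pax6 the lowest, 42.0%.

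The fall of Mafa was set beside 13 tested genes of the Maf family and of factors that pair with it or modify it, Mafa included. Of the small Maf genes, which lack an activation domain, Mafg was called lower, from 30.0 and 26.9 to 19.9 and 18.0 CPM (log2 fold change −0.59, edgeR adjusted p = 0.000125), just at the fold change limit. Mafg was under that limit without siScramble replicate 2 (−0.51) and without siTbk1 replicate 3 (−0.52), and after removal of the span trend (−0.48). Mafk (−0.42, edgeR adjusted p = 0.000393) and Maff (−0.23, edgeR adjusted p = 0.0665) were not called. Fos, an immediate early gene whose product pairs with Jun and can pair with Maf proteins, was called lower at a low level, from 1.21 and 1.72 to 0.489 and 0.424 CPM (log2 fold change −1.65, standard error 0.30, edgeR adjusted p = 0.000753). In this list 3 genes, Mafa included, were called lower (6.18% of all tested genes) and 0 higher (4.81%) by edgeR, and 8 were lower (27.9%) and 2 higher (27.5%) at an unadjusted p-value under 0.05. Its median log2 fold change was −0.23. Gsk3a and Gsk3b, kinases that phosphorylate Mafa, had log2 fold changes of −0.25 and 0.42. Both were past the adjusted p-value (edgeR adjusted p = 0.00303 and 0.000199) but not the fold change limit, so neither was called.

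Partners and coregulators of the factors were followed in a list of 21 genes, of which 16 were tested. Here 1 was called lower (6.18% of all tested genes) and 0 higher (4.81%) by edgeR, and 5 were lower (27.9%) and 6 higher (27.5%) at an unadjusted p-value under 0.05. The median log2 fold change was 0.020. The gene called lower was Tcf3, whose product is an E protein that pairs with Neurod1. It was at 21.9 and 24.4 CPM in siScramble and at 15.7 and 13.8 CPM in siTbk1 samples (log2 fold change −0.64, standard error 0.090, edgeR adjusted p = 0.000127), with no overlap of the groups. The call on Tcf3 was lost to the fold change limit without siScramble replicate 3 (−0.57) and without siTbk1 replicate 3 (−0.55). Tcf12, another E protein, was higher within the limit (log2 fold change 0.48, edgeR adjusted p = 0.000187). Ldb1, which joins Isl1 into complexes, had a log2 fold change of −0.44, and its partner Ssbp3 one of −0.077 (edgeR adjusted p = 9.6e-05 and 0.303).

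Of 40 other transcription factors of the pancreas and of endocrine cells, 31 were tested, and 2 were called higher (4.81% of all tested genes) and 3 lower (6.18%) by edgeR, with a median log2 fold change of −0.022. Zbtb20, a zinc finger repressor, rose from 2.85 and 3.69 to 7.93 and 8.06 CPM (log2 fold change 1.30, standard error 0.14, edgeR adjusted p = 2.35e-05). St18, a zinc finger factor of the Myt family, rose from 313 and 294 to 529 and 546 CPM (log2 fold change 0.83, standard error 0.053, edgeR adjusted p = 7.8e-07), and its counts are partly fractional. Besides Mafg, the genes called lower were Neurod2 (log2 fold change −0.73) and Onecut2 (−0.998). Neurod2, which shares the name of a relative of Neurod1 and which the table lists as a pseudogene, fell from 9.79 and 10.5 to 6.42 and 5.75 CPM, while Onecut2 was measured at only 1.11 to 3.33 CPM. Genes of inherited diabetes and islet development were among those not called, namely Hnf4a (−0.034), Glis3 (−0.32), Rfx6 (0.22) and Gata6 (−0.022). Of these, Glis3 and Rfx6 were past the adjusted p-value (edgeR adjusted p = 0.00452 and 0.00708) but not the fold change limit.

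Genes that these factors are known or thought to regulate were examined in a list of 26, of which 23 were tested. The list had 2 genes called lower (6.18% of all tested genes) and 2 called higher (4.81%) by edgeR, with a median log2 fold change of 0.054. Ins1 fell from 10380 and 11090 to 7520 and 6244 CPM (log2 fold change −0.64, standard error 0.079, edgeR adjusted p = 5.74e-05), and Ins2 from 144 and 153 to 104 and 82.4 CPM (−0.67, standard error 0.087, edgeR adjusted p = 7.78e-05). Both insulin genes were under the fold change limit without siTbk1 replicate 3 (both −0.51) and after removal of the span trend (−0.54 for Ins1 and −0.56 for Ins2). Ero1b, an oxidase of the endoplasmic reticulum used in proinsulin folding, rose from 34.7 and 33.7 to 57.2 and 59.3 CPM (log2 fold change 0.77, edgeR adjusted p = 3.46e-06). Slc18a1, a vesicular monoamine transporter, rose from 1.52 and 1.74 to 3.38 and 3.68 CPM (log2 fold change 1.12, edgeR adjusted p = 0.000255). Slc2a2, the glucose transporter of rodent β-cells (−0.37), Iapp, which encodes amylin (0.38), and Slc30a8, a zinc transporter of the granule (0.15), were past the adjusted p-value with smaller changes, the largest edgeR adjusted p being 0.0325.

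**Figure D4:**
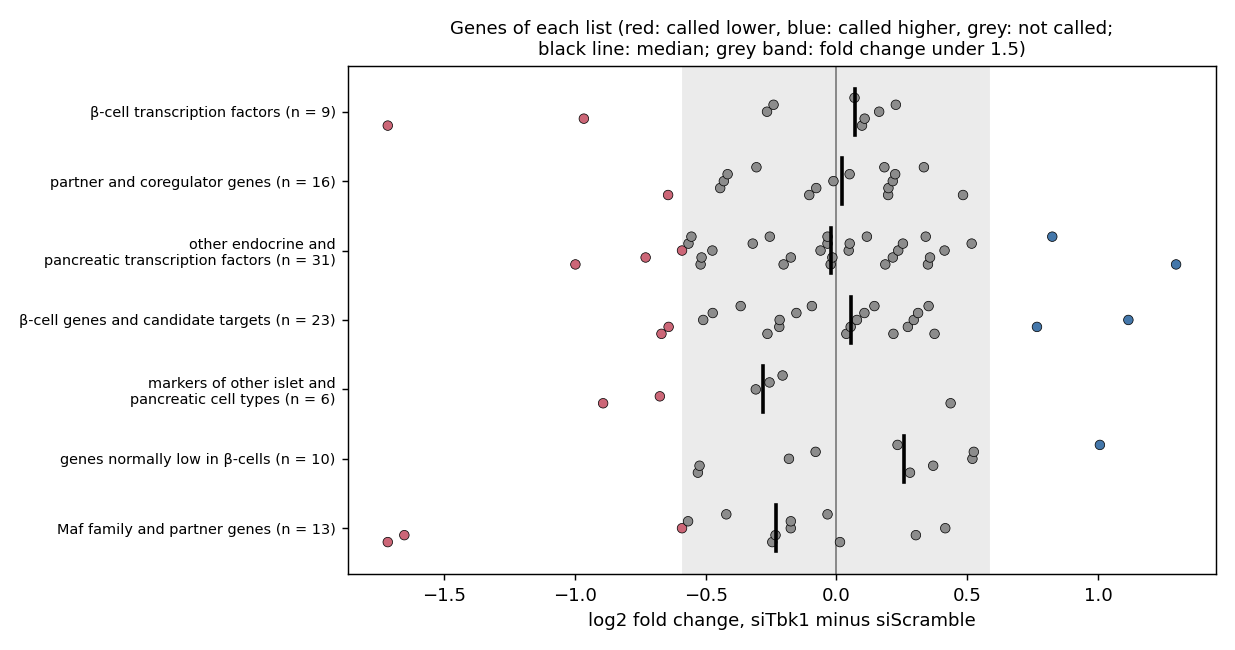
Log2 fold change of every tested gene in the 9-factor list and in 6 related lists, 1 point per gene, with the list's median as a black line. Red and blue points were called lower and higher, and the grey band marks changes under 1.5-fold. Mafa and Fos, at −1.72 and −1.65, are the points furthest to the left.

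Among markers of other islet and pancreatic cell types, 6 of 24 were tested, and 2 were called lower (6.18% of all tested genes) and 0 higher (4.81%) by edgeR. At an unadjusted p-value under 0.05, 4 were lower (27.9% of all tested genes) and 0 higher (27.5%). Gcg fell from 1389 and 1313 to 815 and 878 CPM (log2 fold change −0.68, standard error 0.057, edgeR adjusted p = 4.7e-06), so it was lower together with Mafa, Mnx1 and both insulin genes. Gast, which encodes gastrin, fell from 2.25 and 2.32 to 1.17 and 1.30 CPM (log2 fold change −0.89, edgeR adjusted p = 0.00291). The further α-cell markers Irx1 and Irx2 were not analysed here.

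The 4 libraries were also searched for the genes whose profile was nearest to that of Mafa, measured as the Euclidean distance between the 4 log2 CPM values, each relative to the control mean, over 12386 tested genes whose mean reached 1 CPM. The 5 nearest were Prr7 (distance 0.246), Lhfpl4 (0.367), Wbp11 (0.387), Fsd1 (0.411) and Hmgcs1 (0.418), with log2 fold changes between −1.72 and −1.48. None of the other 8 factors was among them, which follows from their smaller changes, the next lowest being Mnx1 at −0.97. With 4 samples this likeness mainly means a fall of similar size, and Wbp11 has fractional counts.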

How the data were processed

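RNA from 4 INS-1 832/13 samples had been made into TruSeq Stranded mRNA libraries. The table the authors deposited holds an estimated count per gene and sample, unscaled between libraries, and the submitters' processing notes name STAR 2.6.1d, Partek and build rn6. The counting method is not given in the sources used here. Counts were rounded to whole numbers, low genes were removed with filterByExpr of edgeR 4.0.16 (minimum count 10), which left 13953 genes, and libraries were scaled with TMM factors. Groups were compared with edgeR's quasi-likelihood test (treatment only) and Benjamini-Hochberg adjustment over all tested genes. Calls required an adjusted p-value below 0.05 together with a change of 1.5-fold or more. Standard errors come from the F statistic, and intervals from it with the total degrees of freedom. The biological coefficient of variation was 0.0482. Replicates differed by more than counting noise (chi-square per degree of freedom 6.70 in siScramble and 6.65 in siTbk1). A count over 0.01 from a whole number marks a fractional count.

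All 9 factors are described. Tbk1, the called genes of each related list with some others of known role, and the 5 genes nearest to Mafa are named. The members and lists were chosen with earlier results of these data known, and genes beyond this rule were named after their values were seen. Alternatives were other tests (DESeq2 1.42.0, limma-voom with limma 3.58.1), scalings, filters and fold change rules, a replicate block, a loess correction (span 0.5) for genomic span, and leaving out each sample. Tests were checked on simulated counts with the same dispersion for all genes and no span trend. That check covers the code and not how well the tests suit these data. R 4.3.3, Python 3.11.15 and matplotlib 3.10.9 were used. Some genes of these lists are not reported here.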

Additional observations from a re-analysis of the deposited data

How the results depend on the processing

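Mafa was called lower in all 13 alternatives, with log2 fold changes from −1.76 to −1.61, and Mnx1 in 12 of 13, from −1.01 to −0.84. The exception was glmTreat against a fold change of 1.5, where Mnx1 (−0.97) had an adjusted p of 0.131, 1 of the 9 factors was called lower, and 163 of all genes were called higher and 101 lower. Of the related lists together, 3 genes were then called higher and 1 lower, against 5 and 9. Without a fold change limit 3405 of all genes were higher and 3459 lower, 2 of the 9 factors were higher, and 32 and 30 genes of the related lists were higher and lower. With the replicate block 2 factors were called lower, and 699 of all genes were called higher and 898 lower. Over all tested genes, deviations of same-numbered samples correlated at 0.013 by Pearson's measure and at −0.19 by Spearman's. Among the 7938 genes with a mean log2 CPM of at least 4, these values were −0.39 and −0.43. Neither set of genes gave a clearly positive value, so these correlations do not show that the numbers pair the samples. Total counts did go with the number. They were 47443061 (siScramble) and 47759013 (siTbk1) in the samples numbered 2, and 38811919 and 38428926 in those numbered 3. The reason for the negative values and for the difference in total counts was not tested. With the block, the adjusted p of Pax6 was 0.0662, past the threshold without it. With a sample left out, the log2 fold change was −1.93 to −1.56 for Mafa and −1.11 to −0.82 for Mnx1, both called in all 4 fits, which take the lone sample to vary like the others. In the same fits 574 to 1159 of all genes and 5 to 13 of the related lists were called lower. Pdx1, Nkx6-1 and Pax6 had an adjusted p under 0.05 in 9, 10 and 8 of 11 other tests, scalings, filters and corrections. Nkx6-1 was at 0.0541 with DESeq2 and Pax6 at 0.0643 with library size alone. The median over all genes moved by less than 0.1 on the log2 scale under every scaling. The cause of these differences was not tested. Precision is limited by 2 samples per group and, for Mafa and Mnx1, by counts between 77 and 360.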

Other observations

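Genes that mature β-cells normally keep low were examined in a list of 16, of which 10 were tested, and 1 was called higher (4.81% of all tested genes) and 0 lower (6.18%) by edgeR. At an unadjusted p-value under 0.05, 6 were higher (27.5% of all tested genes) and 1 lower (27.9%). The median log2 fold change was 0.26, beside 0.0071 for all tested genes. Cxcl12, which encodes a chemokine, rose from 3.39 and 3.28 to 7.12 and 6.28 CPM (log2 fold change 1.01, standard error 0.13, edgeR adjusted p = 7.9e-05), with both siTbk1 samples above both controls. Smad3, a mediator of TGF-β signalling, was at 18.4 and 17.9 CPM in siScramble and at 26.8 and 25.3 CPM in siTbk1 samples (log2 fold change 0.52, edgeR adjusted p = 0.000139). Pdgfra, a growth factor receptor gene, had a log2 fold change of 0.53 (edgeR adjusted p = 0.00414). Rest, a repressor of neuronal and endocrine genes, was at 0.319 to 0.604 CPM in all 4 samples and was not past the threshold (edgeR adjusted p = 0.258). Slc16a1, a monocarboxylate transporter gene, had a log2 fold change of −0.18 (edgeR adjusted p = 0.191), and Acot7, a thioesterase gene, one of −0.53 (edgeR adjusted p = 0.0412).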
